A study of Mus musculus with 4 samples.

Results

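The genes of the cytosolic ribosomal proteins were examined for peaks of Eya1, a transcriptional coactivator and phosphatase needed for kidney formation that does not itself recognise a DNA sequence. Members were the protein-coding genes of GENCODE release M21 (mouse, mm10) whose symbols are Rpl or Rps followed by a number and an optional a, x, y or l, together with Rplp0, Rplp1, Rplp2 and Rpsa, and kinases of the Rps6k family were not taken. This gave 83 members of 21938 protein-coding genes on the nuclear chromosomes, of which 51 encode proteins of the large subunit and 32 of the small subunit. They lie on 19 chromosomes, and 4 of them (Rpl10, Rpl36a, Rpl39 and Rps4x) are on the X chromosome. A further 6 have the name of a ribosomal protein followed by l and are like-named paralogs (Rpl10l, Rpl22l1, Rpl39l, Rpl3l, Rpl7l1 and Rps27l), which leaves 77 members of the main class. Fau, whose protein is cut into a ubiquitin-like domain and a ribosomal protein, was not matched by the names and stands apart here.

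Chromatin for Eya1 ChIP-seq came from mouse kidneys at E13.5, from embryos that carried the Eya1HA-FLAG knockin allele, so that every Eya1 ChIP pulled down a tagged Eya1 protein through its FLAG tag. Each assay used 80 kidneys, and the series holds 4 samples of the same stage, namely 1 input sample, 1 IgG sample and a pair of Eya1 ChIP replicates. Whole kidneys were used, so nephron progenitors, ureteric bud and stroma cannot be told apart. The 2 deposited lists, 1 for each Eya1 ChIP replicate, hold peak coordinates with no score and no read count, and the depth behind a peak is therefore unknown. The lists differ in kind before any gene is considered, since at the promoters of other protein-coding genes the median replicate 1 peak was 1099 bp wide and the median replicate 2 peak 200 bp. The authors called the peaks against input or IgG, and peak lists of the input and IgG samples themselves were not used here.

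Ribosomal proteins are made in equal amounts for the 2 subunits of the ribosome, and their genes are transcribed strongly in growing cells. Their promoters usually lie in CpG islands, lack a TATA box, and start transcription at a C within a run of pyrimidines, which then becomes the 5′ terminal oligopyrimidine (TOP) tract through which translation of these mRNAs follows nutrient signals. The first exon is commonly short, and many of the introns carry small nucleolar RNA (snoRNA) genes. CpG islands are also the places where peaks of many chromatin-associated proteins fall, so the members were set beside other promoters of the same CpG content.

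The sequences below show what a replicate 2 peak at these genes contains, and they are the peaks of the ribosomal stalk genes and Rpsa. Rplp0, Rplp1 and Rplp2 encode the acidic stalk that recruits the elongation factors, and Rpsa encodes a small-subunit protein also known as the laminin receptor. All are mm10 reference sequence, written 5′ to 3′ on the strand of the gene. In the first pair, which lies wholly within introns of the principal transcript, capitals mark each CpG.
Rplp0, chr5:115559609-115559746, plus strand: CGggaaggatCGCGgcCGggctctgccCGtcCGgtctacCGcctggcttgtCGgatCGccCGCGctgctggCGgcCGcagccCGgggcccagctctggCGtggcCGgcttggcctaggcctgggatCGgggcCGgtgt
Rplp1, chr9:61914028-61914318, minus strand: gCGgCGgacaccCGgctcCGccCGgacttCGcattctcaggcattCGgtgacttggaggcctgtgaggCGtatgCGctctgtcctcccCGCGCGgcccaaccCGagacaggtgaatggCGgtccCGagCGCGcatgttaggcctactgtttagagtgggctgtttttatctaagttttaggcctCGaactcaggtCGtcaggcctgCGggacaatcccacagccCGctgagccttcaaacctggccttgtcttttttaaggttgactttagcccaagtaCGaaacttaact
The Rplp0 peak is 138 bp long with 18 CpG, and its nearer edge lay 142 bp downstream of the transcription start site (TSS). The Rplp1 peak is 291 bp long with 22 CpG and began 224 bp downstream of the TSS. In the peaks of Rplp2 and Rpsa, which follow, capitals mark the E-box word CACGTG, the core site of Myc and related factors.
Rplp2, chr7:141447704-141447883, plus strand: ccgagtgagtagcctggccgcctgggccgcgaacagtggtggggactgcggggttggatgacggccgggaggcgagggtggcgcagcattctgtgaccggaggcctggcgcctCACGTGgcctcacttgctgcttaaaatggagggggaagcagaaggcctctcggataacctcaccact
Rpsa, chr9:120127879-120128048, plus strand: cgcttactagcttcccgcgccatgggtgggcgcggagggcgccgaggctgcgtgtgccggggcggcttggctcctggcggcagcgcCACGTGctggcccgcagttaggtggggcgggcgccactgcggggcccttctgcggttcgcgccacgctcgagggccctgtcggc
The Rplp2 peak (180 bp, 13 CpG) began 334 bp and the Rpsa peak (170 bp, 23 CpG) 190 bp downstream of the TSS. The TSS here is the representative one, that of the principal transcript. All 4 peaks lay inside a wider replicate 1 peak and none reached that TSS. The peaks of Rplp0 and Rplp2 did cover another annotated start of their gene.

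Peaks were common at the ribosomal protein genes. A gene was counted when a peak interval came within 1 kb of any of its annotated TSS. In replicate 1 49 of 83 members had such a peak (59.0%, exact 95% CI 47.7 to 69.7), against 20.3% of all protein-coding genes. In replicate 2 the count was 37 of 83 (44.6%, CI 33.7 to 55.9), against 14.7% of all protein-coding genes. With the lists combined, 54 of 83 members had a peak (65.1%, CI 53.8 to 75.2), against 23.5%, and 31 of 83 had a peak that overlapped a peak of the other list by at least 1 bp (37.3%, CI 27.0 to 48.7), against 11.4%. The intervals are Clopper-Pearson intervals that cover counting error over genes only, and genes of 1 list are not replicates. No test over samples can be made with 1 group of 2 replicates.

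**Figure D1:**
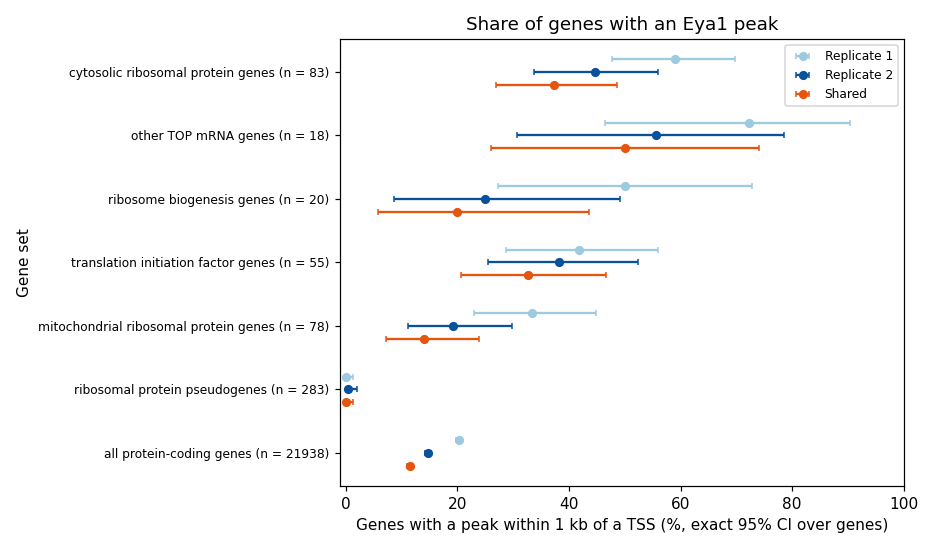
Share of genes with an Eya1 peak within 1 kb of a TSS (x axis, %) in 7 gene sets (y axis, with the number of genes), for replicate 1, replicate 2 and peaks shared by both. Points are shares and bars are exact 95% CI over genes. Cytosolic ribosomal protein genes stood at 59.0%, 44.6% and 37.3%, and the pseudogenes at or near 0.

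Counts changed little between windows of 250 bp and 3 kb, but much when a peak had to cover a TSS. For replicate 1 the nearest peak of each counted member came within 216 bp of a TSS, and among the other members the nearest was 4638 bp away, at Rpl23a. For replicate 2 the nearest peak of each counted member came within 502 bp, and among the other members the nearest was 2520 bp away, at Rpl35. With a window of 250 bp 33 members had a replicate 2 peak in place of 37, and when the peak had to lie over an annotated TSS the replicate 2 share fell to 14.5%, while that of replicate 1 was 56.6%. Members have a median of 6 annotated TSS (1 to 14) and other protein-coding genes 3 (1 to 58), so members have more start sites near which a peak can fall. With 1 representative TSS for each gene the share of members was 63.9% in either list. That of other protein-coding genes, weighted to the members' CpG content as described below, was 44.3%.

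CpG content differed between members and other genes, and the comparison was therefore repeated within bins of it. The ratio of observed to expected CpG in the 500 bp on either side of the TSS had a median of 0.81 at members and 0.57 at other protein-coding genes. When the other genes were weighted to the members' distribution over bins of 0.1, their share with a peak was 39.2% in replicate 1, 28.4% in replicate 2, 45.2% in either list and 22.3% for shared peaks. The members lay 19.8, 16.2, 19.9 and 15.0 percentage points above these. The weighted share for either list (45.2%) lies below the members' interval of 53.8 to 75.2%. How far it lies below depended on how CpG content was expressed, since weighting by the GC share gave 25.2% for the other genes.

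The bins show where the members stood. Of 29 members with a ratio of 0.7 to 0.8, 17 had a peak in either list (58.6%, exact 95% CI 38.9 to 76.5), against 38.5% of other genes in the bin. Of 31 with a ratio of 0.8 to 0.9, 25 had a peak (80.6%, CI 62.5 to 92.5), against 51.0%. Of 13 with a ratio of 0.9 to 1.0, 10 had a peak (76.9%, CI 46.2 to 94.96), against 62.1%, which lies within the members' interval. At ratios of 0.6 to 0.7, 2 of 5 members had a peak against 25.5%, and below 0.6 none of the 4 members (Rpl18, Rpl39l, Rps4x and Rpl3l) had one. Few other genes did there either, with 15.4% at ratios of 0.5 to 0.6, where 3 of the 4 lie. At 0.1 to 0.2, where Rpl3l lies, the share of other genes was 2.15%. Members with a peak had a higher CpG content than those without, with median ratios of 0.83 and 0.76 and medians of 70.5 and 55 CpG in the window, and their ranges overlapped. Rpl22l1 had the highest ratio of all members (1.02) and no peak, and Rpl34, Rps3a1 and Rpl37a had none at 0.98.

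**Figure D2:**
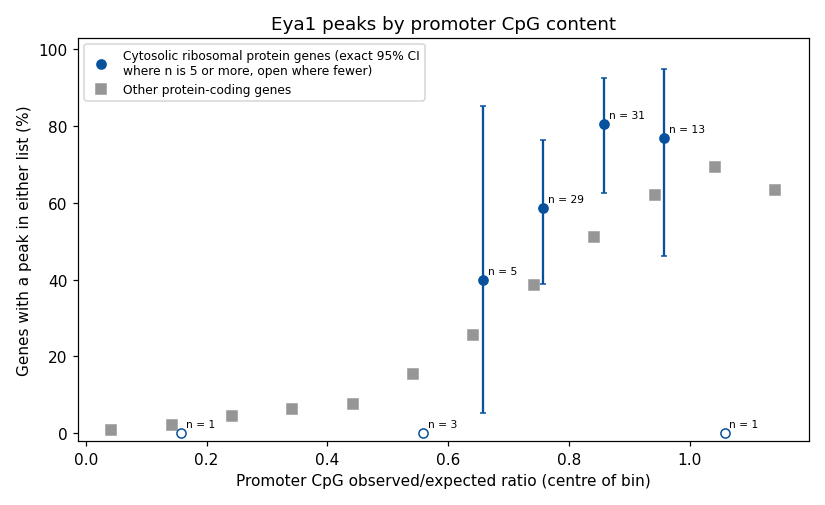
Share of genes with a peak in either list (y axis, %) by promoter CpG observed/expected ratio (x axis, centre of bins of 0.1), for ribosomal protein genes (circles, with exact 95% CI where the bin holds 5 or more members) and other protein-coding genes (squares). Members lay above the other genes in the 4 bins from 0.6 to 1.0, by the largest margin at 0.8 to 0.9 (80.6% against 51.0%).

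The 31 members with a shared peak comprised 21 large-subunit genes and 10 small-subunit genes. The large-subunit genes included Rpl12, Rpl14, Rpl17, Rpl19, Rpl22, Rpl23, Rpl27a, Rpl3, Rpl31, Rpl32, Rpl36, Rpl4, Rpl41, Rpl5, Rpl7a, Rpl8, Rpl9, Rplp0, Rplp1 and Rplp2, and the small-subunit genes included Rps14, Rps20, Rps21, Rps23, Rps27a, Rps27l, Rps29, Rps6 and Rpsa. Among them were the whole stalk, Rpl3 and Rpl4, whose products reach into the core of the large subunit, Rps6, the substrate of S6 kinase, and Rps27a, which encodes ubiquitin fused to a ribosomal protein. Among members of the main class 35 of 46 large-subunit genes had a peak in either list (76.1%, exact 95% CI 61.2 to 87.4) and 18 of 31 small-subunit genes (58.1%, CI 39.1 to 75.5), and these intervals overlap.

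Another 17 members had a peak in replicate 1 only, 10 of the large subunit (Rpl10a, Rpl11, Rpl13, Rpl15, Rpl24, Rpl26, Rpl28, Rpl30, Rpl37 and Rpl38) and 7 of the small subunit (among them Rps13, Rps19, Rps2, Rps24 and Rps7). Rps19, the gene most often mutated in Diamond-Blackfan anaemia, had a replicate 1 peak of 1755 bp and Rpl13 had one of 1682 bp. Replicate 1 peaks without overlap were otherwise narrower at members, with a median of 1007 bp against 1172 bp for shared ones, as at other promoters (956 against 1215 bp). Rpl11, whose product joins that of Rpl5 and the 5S rRNA in a particle that binds Mdm2, had a replicate 1 peak of 1344 bp and its nearest replicate 2 peak 7152 bp away, whereas Rpl5 had a shared peak. Just 5 members had a peak in replicate 2 only. Their widths were 246 bp at Rpl27, 140 bp at Rpl6, 117 bp at Rpl7, 156 bp at Rps26 and 124 bp at Rps27. Rpl13a had 1 peak in replicate 1 and 2 peaks in replicate 2 that did not overlap it, with the replicate 1 peak upstream of the TSS (midpoint at -512 bp) and the replicate 2 peaks at 96.5 and 699.5 bp downstream.

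The remaining 29 members had no peak in either list. They include the 4 X-linked members and 5 of the 6 like-named paralogs. Rpl10l and Rpl39l are expressed mainly in testis and Rpl3l in heart and skeletal muscle, while Rps27l, a target of p53, was the like-named paralog with a shared peak. The X chromosome carried few promoter peaks in general, with a peak in either list at 24 of 944 other X-linked protein-coding genes (2.54%). That leaves 20 of 73 autosomal members of the main class without a peak, among them Rpl18, Rpl21, Rpl23a, Rpl29, Rpl34, Rpl35, Rpl35a, Rpl37a, Rps10, Rps12, Rps15, Rps15a, Rps16, Rps18, Rps25, Rps28, Rps3, Rps3a1 and Rps9. Rps3, at the mRNA entry channel of the small subunit, and Rps15 and Rps18, at its head, thus had none. Since the lists hold only called peaks, these genes fell below the cutoff of both lists, which does not show that Eya1 was absent from them.

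Autosomal members alone had peaks in 62.0% (replicate 1), 46.8% (replicate 2), 68.4% (either list) and 39.2% (shared) of 79 genes. The CpG-weighted shares of other autosomal genes were 40.6%, 29.6%, 46.8% and 23.2%. Members were thus higher in each of the 4 counts with the X chromosome left out. Among members 30 host a snoRNA, and 22 of these had a peak in either list (73.3%, exact 95% CI 54.1 to 87.7), against 32 of 53 that host none (60.4%, CI 46.0 to 73.5). These intervals overlap.

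Peaks lay downstream of the TSS. Offsets were measured from the midpoint of a peak to the representative TSS of the gene, that of its principal transcript, with positive values downstream. The 49 replicate 1 peaks within 1 kb of that TSS had a median offset of 391.5 bp (95% CI of the median 282 to 467), and 46 of them had a midpoint downstream (93.9%). Most of them were wide enough to cover the TSS as well, as 40 of 49 did (81.6%). The 39 replicate 2 peaks had a median offset of 369 bp (CI 280 to 425). Their midpoint was downstream in 38 of 39 (97.4%), and 37 lay wholly downstream (94.9%). A single replicate 2 peak, at Rpl13a, covered the TSS, and the one upstream was that of Rpl7 (midpoint at -218 bp), which also lies near the TSS of Rdh10.

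**Figure D3:**
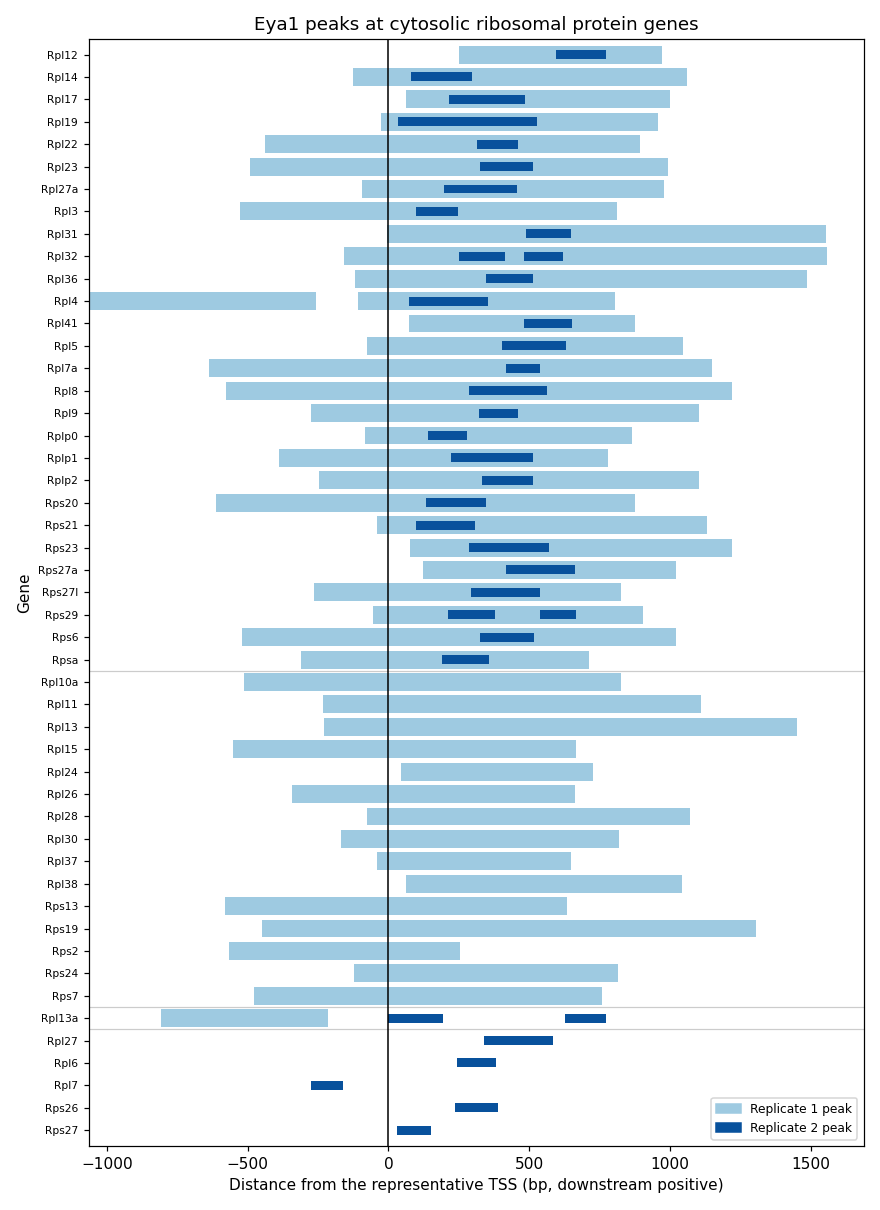
Extent of each Eya1 peak within 1 kb of the representative TSS (x axis, distance in bp, downstream positive) at each ribosomal protein gene (y axis), with replicate 1 peaks as wide pale bars and replicate 2 peaks as narrow dark bars. Genes are grouped from top to bottom into those with shared peaks, replicate 1 only, a peak in each list without overlap (Rpl13a) and replicate 2 only. At genes with shared peaks the dark bars sit downstream of the TSS inside the pale bars. Rps14 is not drawn because its peaks lie farther away, and members not reported by name are left out.

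Other promoters showed a displacement in the same direction. At other protein-coding genes the median offset was 280 bp in replicate 1 (n = 4234) and 257 bp in replicate 2 (n = 3503), and 75.4% of the replicate 2 peaks lay wholly downstream, with 8.65% over the TSS. Where no second protein-coding TSS was near, the replicate 2 peak lay wholly downstream in 30 of 31 cases at members (96.8%) and in 82.3% at other genes, with median offsets of 350.5 and 289 bp. The size of the offset depended on which start site was used. Since the median number of annotated TSS was 6 at members and 3 at other genes, members have more starts from which the nearest is taken. From the nearest annotated TSS of the same gene, the median offsets were 88.5 bp in replicate 1 and 161 bp in replicate 2 at members, and 128.5 and 130.5 bp at other genes, so the order of members and other genes turned in replicate 1. By that count 12 of the 39 replicate 2 peaks at members (30.8%) covered an annotated start site, and 30.1% did at other genes.

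The coverage profiles give the same picture for each position. Replicate 2 peaks covered 1.20% of members at the TSS and at most 24.1%, reached 350 bp downstream. Among CpG-weighted other genes the maximum was 13.7%, at 250 bp, with 2.98% at the TSS. Replicate 1 peaks covered 48.2% of members at the TSS and at most 55.4%, from 125 bp downstream, and the maximum of the other genes was 35.1%, at 275 bp.

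**Figure D4:**
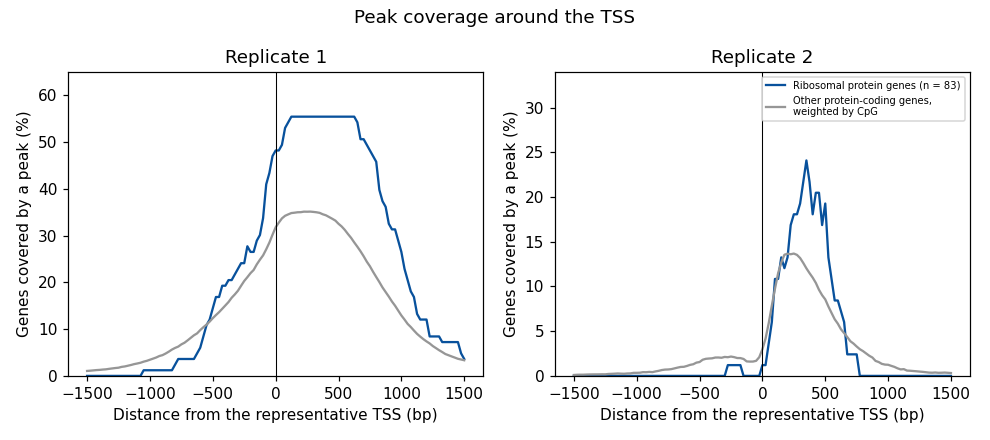
Share of genes covered by a peak (y axis, %) against the distance from the representative TSS (x axis, bp) for the 83 ribosomal protein genes and for other protein-coding genes weighted by CpG content, in replicate 1 and replicate 2. The replicate 2 curve of the members rises from 1.20% at the TSS to 24.1% at 350 bp.

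These positions fall in the first introns of the principal transcript. Exons and introns of other annotated transcripts were not considered, so a peak called intronic here can hold another annotated start. The midpoint lay in intron 1 for 29 of the 39 replicate 2 peaks, in intron 2 for 8, in coding exon 2 for 1 (Rpl27) and upstream for 1 (Rpl7). For replicate 1 it lay in intron 1 in 25 of 49. Wholly intronic were 22 of the 39 replicate 2 peaks (56.4%), among them 18 wholly in intron 1, and 16 touched an exon (41.0%). The first exon of members had a median length of 95 bp (29 to 1023) and the first intron 390 bp, while at other protein-coding genes these were 212 bp and 2841 bp. Members with a replicate 2 peak and members with no peak had first introns of similar median length (394 and 411.5 bp). CpG were densest just downstream of the TSS too, with a maximum of 10.6 per 100 bases at 200 to 299 bp in members with a peak and of 8.14 at 100 to 199 bp in members with none. At other genes with a peak the maximum was 10.3, in the first 100 bases. Whether CpG density has a part in where the peaks lay was not tested.

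Widths differed far more between the lists than between members and other genes. The 53 replicate 1 peaks at members had a median width of 1149 bp (518 to 1801, 95% CI of the median 985 to 1292), against 1099 bp at 3936 peaks of other promoters. The 40 replicate 2 peaks had a median width of 180.5 bp (117 to 495, CI 158 to 215), against 200 bp at 3425 peaks of other promoters. Both medians of the other promoters lie within the members' intervals. Of the replicate 2 peaks at members 33 overlapped a replicate 1 peak, and all 33 lay wholly inside it.

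The widest shared peaks of replicate 1 included those at Rpl8 (1801 bp), Rpl7a (1789 bp), Rpl32 (1715 bp) and Rpl36 (1606 bp). In replicate 2 the peaks at these genes were 277 bp at Rpl8, 122 bp at Rpl7a, 139 and 165 bp at Rpl32 and 170 bp at Rpl36. The widest of replicate 2 were at Rpl19 (495 bp), Rplp1 (291 bp), Rps23 (283 bp), Rpl4 (282 bp) and Rpl8 (277 bp), where the overlapping replicate 1 peaks were 985, 1169, 1145, 914 and 1801 bp. Rpl8 alone was among the 5 widest shared peaks of both lists. Rpl19, whose replicate 2 peak ran from 33 to 527 bp downstream, was the only member whose peaks overlapped by at least 50% of both widths.

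**Figure D5:**
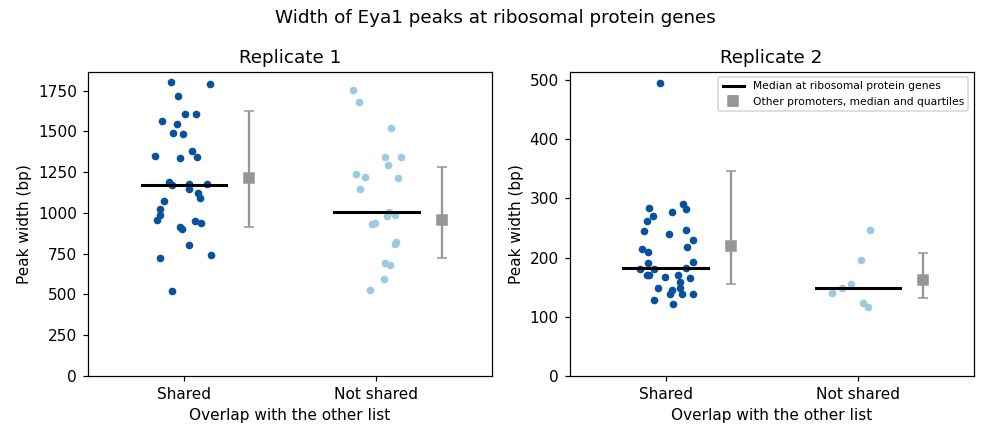
Width (y axis, bp) of each Eya1 peak at the ribosomal protein genes, split by overlap with the other list (x axis), in replicate 1 and replicate 2. Points are peaks, black lines are their medians, and grey squares with bars are medians and quartiles at other promoters. The replicate 2 peak of 495 bp is that of Rpl19.

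At the stalk genes and Rpsa both lists can be read side by side. Rplp0 had a replicate 1 peak of 950 bp from -83 to 866 bp and a replicate 2 peak of 138 bp. Rplp1 had peaks of 1169 bp (-388 to 780 bp) and 291 bp. Rplp2 had peaks of 1350 bp (-245 to 1104 bp) and 180 bp. At Rpsa they were 1022 bp (-309 to 712 bp) and 170 bp. In each of these 4 genes the replicate 1 peak spanned the representative TSS and the replicate 2 peak did not.

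Some peaks belonged to more than 1 gene. At 11 members a peak was also within 1 kb of a TSS of another protein-coding gene, namely Lrsam1 at Rpl12, Nkiras1 at Rpl15, Zwilch at Rpl4, Zc3h10 at Rpl41, Rdh10 at Rpl7, Med22 at Rpl7a, Lias at Rpl9, Ndst1 at Rps14, Polr3a at Rps24, Rab13 at Rps27 and Clhc1 at Rps27a. The peaks of Rps14 had midpoints at -26603.5, -25715.5 (replicate 1) and -26349 bp (replicate 2) from its representative TSS, within 1 kb of both a far annotated start of Rps14 and a TSS of Ndst1, and none lay within 1 kb of the representative TSS. At least 2 replicate 1 peaks were counted at Rpl4, Rpl41, Rps14 and Rps24, and at least 2 replicate 2 peaks at Rpl13a, Rpl32 and Rps29. The pair of Rpl32 peaks lay 249 to 413 bp and 481 to 619 bp downstream, both inside 1 replicate 1 peak. Rps2, which lies 7757 bp from Rpl3l, had a peak in replicate 1 where Rpl3l had none. The CpG ratio of Rpl3l was 0.17, and 2.15% of other genes at ratios of 0.1 to 0.2 had a peak in either list. This single example does not speak for neighbouring members in general.

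Related gene sets were counted in the same way, with no adjustment for CpG content, beside 23.5% of all protein-coding genes with a peak in either list. Of 18 other genes of TOP mRNAs 14 had a peak in either list (77.8%, exact 95% CI 52.4 to 93.6), with 9 shared, among them the elongation factor genes Eef1a1, Eef1g and Eef2, the poly(A)-binding protein gene Pabpc1 and Tpt1. Fau had a shared peak. Of 55 translation initiation factor genes 26 had a peak (47.3%, CI 33.7 to 61.2). Of 20 ribosome biogenesis genes 11 did (55.0%, CI 31.5 to 76.9), with shared peaks at Bop1, Ddx21, Ncl and Ubtf. Of 78 genes of mitochondrial ribosomal proteins 30 had one (38.5%, CI 27.7 to 50.2), and its interval lies below that of the cytosolic genes (53.8 to 75.2). The difference itself was not tested and was not adjusted for CpG content. Shared peaks were found at 14.1% of the mitochondrial and 37.3% of the cytosolic ribosomal protein genes. Genes annotated as ribosomal protein pseudogenes had a peak at 1 of 283 (0.353%, CI 0.00895 to 1.95), which was Rps12-ps4 in replicate 2. The sequence around their starts was not examined.

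Short promoter words were searched on both strands from 200 bases before to 50 after the TSS, and the shares are descriptions of sequence. The ETS word CCGGAAG was in 26 of 83 member promoters (31.3%) and in 10.5% of all protein-coding promoters. It was in 22 of 54 members with a peak (40.7%) and 4 of 29 without (13.8%), and in 17.4% of other promoters with a peak. Inside the peaks the order differed between the lists. The ETS word was in 50.9% of replicate 1 peaks at members and 31.0% at other promoters. In replicate 2 peaks these shares were 5.0% and 6.72%. The SP word GGGCGG was in 49.4% of members and 43.9% of all promoters, and in 67.9% of other promoters with a peak. The YY1 word GATGGCG was in 8.43% of members against 3.88%, with 2 of 54 members that had a peak and 5 of 29 that had none, and it was in 7.69% of other promoters with a peak. Inside replicate 1 peaks it was found in 32.1% at members and 24.0% at other promoters. The NFY word CCAAT was in 30.1% against 34.5%, and the NRF1 word GCATGCGC in 4.82% against 3.58%. The TATA word TATAAA, searched on the strand of the gene from 40 to 20 bases before the TSS, was in 0 of 83 members and 2.35% of all promoters.

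The E-box word CACGTG was in 9.64% of member promoters and 6.84% of all. Inside the peaks it was in 5 of 40 replicate 2 peaks at members (12.5%, exact 95% CI 4.19 to 26.8), against 2.69% of 3425 replicate 2 peaks at other promoters, and in 35.8% of replicate 1 peaks at members, against 22.8%. The 5 were those of Rpl12, Rpl8, Rplp2, Rps23 and Rpsa. It was not particular to the peak, because windows of the same width just upstream held the word in 7 of 40 cases (17.5%), and windows just downstream in 1 of 40 (2.50%). The SP word showed the opposite order in replicate 2 only, in 37.5% of peaks at members and 55.6% at other promoters. In replicate 1 it was in 94.3% of peaks at members and 92.9% at other promoters. The replicate 2 peaks held 83.5 CpG per kb at members and 104 at other promoters. The peaks of Rpl12, Rpl8 and Rps23 are shown with CACGTG in capitals, to be read beside those of Rplp2 and Rpsa.
Rpl12, chr2:32962153-32962333, plus strand: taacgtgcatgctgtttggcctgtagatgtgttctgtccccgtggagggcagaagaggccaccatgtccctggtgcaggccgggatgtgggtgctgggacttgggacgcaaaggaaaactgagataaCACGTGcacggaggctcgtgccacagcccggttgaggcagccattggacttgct
Rpl8, chr15:76904365-76904641, plus strand: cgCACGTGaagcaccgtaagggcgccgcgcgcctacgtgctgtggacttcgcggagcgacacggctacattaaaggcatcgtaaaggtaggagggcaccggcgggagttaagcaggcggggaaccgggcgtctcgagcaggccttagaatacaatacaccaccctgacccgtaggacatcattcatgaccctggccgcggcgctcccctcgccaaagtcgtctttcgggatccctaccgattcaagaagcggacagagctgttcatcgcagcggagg
Rps23, chr13:90923246-90923528, plus strand: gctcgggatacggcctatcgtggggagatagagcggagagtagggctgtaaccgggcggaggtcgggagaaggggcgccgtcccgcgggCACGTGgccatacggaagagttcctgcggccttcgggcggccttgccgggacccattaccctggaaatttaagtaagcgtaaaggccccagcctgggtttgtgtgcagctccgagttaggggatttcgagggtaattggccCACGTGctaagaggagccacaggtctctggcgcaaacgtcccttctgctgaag
The Rps23 peak holds the word 2 times in 283 bp. The Rpl8 peak touches coding sequence, where the word sits near its upstream end. The Rpl12 peak lies wholly in introns of the principal transcript, though over another annotated start, and has 8 CpG in 181 bp.

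A pyrimidine tract at the start site was counted when a C followed by at least 4 of C or T began within 5 bases of the representative TSS. It was present at 23 of 83 members (27.7%) and 18.2% of all protein-coding genes. Annotated starts can miss the true start by a few bases or more, and with any annotated TSS of the gene allowed the shares were 74.7% and 45.4%. The median number of annotated TSS was 6 at members and 3 at other protein-coding genes, so members have more starts where a tract can fall. A tract that began exactly at the TSS was found at 8 members (9.64% against 2.27%). Of the 23 members with a tract 17 had a peak in either list (73.9%, exact 95% CI 51.6 to 89.8), and of the 60 without one 37 did (61.7%, CI 48.2 to 73.9), which overlap. Windows from 15 bases before the TSS, and as many from it onwards, are shown for a pair of members with a shared peak, with the tract in capitals.
Rpl19, chr11:98026909-98026938, plus strand: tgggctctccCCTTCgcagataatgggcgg
Rplp1, chr9:61914528-61914557, minus strand: cgcgcaggcgtatatgatCTTTTCCTCagc
The next 3 are members with a tract and no peak in either list.
Rpl34, chr3:130730384-130730413, minus strand: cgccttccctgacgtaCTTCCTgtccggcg
Rpl37a, chr1:72711275-72711304, plus strand: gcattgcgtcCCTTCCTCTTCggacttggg
Rps12, chr10:23787261-23787290, minus strand: caccggagccaCCTCTTTagtgggaggagt
The capitals begin at 3 in Rplp1, 1 in Rpl34 and -4 in Rps12, counted from the TSS as 0. In Rpl19 and Rpl37a they begin at -5, the first position searched, and the run of pyrimidines continues upstream of the capitals, so that the marked stretch is not the whole run. Tracts of this kind were therefore seen at members with and without a peak.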

How the data were processed

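ChIP-seq peak lists of 2 Eya1 ChIP replicates were used, and groups and replicate numbers came from the sample titles. Per their methods the authors used Bowtie for alignment to mm10 and MACS, at several cutoffs and against input or IgG, for peaks, while the submitters' processing notes name HISAT2 with mm10. The cutoff and control behind each list are not given in the sources used here. The deposited lists have 3 columns of coordinates, with no score, p-value or count, and are printed 1-based.

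Gene models were GENCODE M21 and sequence was GRCm38. The representative TSS was that of the APPRIS principal transcript. Shares carry exact Clopper-Pearson 95% CI. Python 3.11.15, numpy 2.4.6, scipy 1.17.1, matplotlib 3.10.9 and samtools 1.23.1 were used, and the calculations were tested on simulated data. Of the 83 members, 63 had an entry in the RefSeq promoter table, which was not used for sequences.

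The members, lists and alternatives were chosen with earlier results of these data known. Genes named are the stalk genes and Rpsa, the X-linked and like-named members, the 5 widest shared peaks of each list, members with peaks in 1 list, more than 1 peak or another gene's TSS, and those without a peak. The replicate 1 only members beyond 10, the other members with a shared peak, Rpl23a, Rpl35 and the members singled out by CpG content, by the search for words inside peaks or by their neighbours, and the genes named from the related sets, were chosen after their values were seen. Results of some single genes are not reported here, and these genes remain in the counts.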

Additional observations from a re-analysis of the deposited data

How the results depend on the processing

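Over 73 alternatives for 11 results, 56 moved a value by less than its spread and 17 moved it further. For shares in 1 list, shared peaks and the tract, the spread was the exact CI over genes. It was the standard deviation of the 2 lists for the either-list and CpG results, and the CI of the median for widths and offsets. Because these spreads are of different kinds and some are wide, the tally does not measure robustness. Counting only peaks over a TSS lowered the replicate 2 share of members to 14.5%, and requiring an overlap of 50% of both peaks lowered the shared count to 1.20%, as the replicate 2 peaks are much narrower. The share in either list was 44.6 to 59.0% with 1 replicate left out, where the lower value is that without replicate 1. The weighted share of other genes was 36.0% by the number of CpG, 25.2% by GC share and 28.4 to 39.2% with 1 replicate left out. The members' excess was 29.1, 39.9 and 16.2 to 19.8 points under the same settings, 23.1 points with a 2 kb window for CpG and 22.7 points without the like-named paralogs. Over all 53 and 40 peaks, the median offset was 97 bp (replicate 1) and 162.75 bp (replicate 2) from the nearest annotated TSS. From the representative TSS to the nearest edge of a peak it was 0 and 249 bp. Those values cover the 49 and 39 peaks within 1 kb of that TSS. The order of members and other genes turned in replicate 1 from the nearest annotated TSS (88.5 against 128.5 bp), where members have more annotated starts to choose from. The tract share was 9.64% exactly at the TSS and 74.7% over all annotated TSS. No paired analysis was possible because both replicates belong to 1 group. Without scores, counts or control peaks, a gene below the cutoff cannot be told from one without Eya1, and the cause of the difference in width between the lists was not tested.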
